A study of Homo sapiens with 9 samples.

Results

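The metallothionein and zinc-response genes described here are 8 rows of the deposited expression table, taken by gene symbol from 58174 rows: the metallothionein genes MT1E, MT1F, MT1G, MT1M, MT1X and MT2A, the zinc-sensing transcription factor gene MTF1 and the zinc exporter gene SLC30A1. All 8 symbols were found, each on 1 row. The table covers 9 RNA-seq libraries labelled as HepG2, a human line from a liver tumour, with 3 libraries in each of 3 groups. The NFE2L1 group is a line overexpressing NFE2L1, a cap'n'collar transcription factor of the endoplasmic reticulum. The NFE2L1DC group overexpresses a form that the protocol writes with a delta before the C, the usual sign for a C-terminal deletion, and the control group carries the genotype label WT and is named in the protocol after the pLVX vector. All groups were grown in high-glucose DMEM with 10% FBS. The labels give neither the promoter that drives the transgenes nor whether a line is 1 clone, and they do not say whether the replicates were separate cultures, so a p-value reflects the spread among these libraries, which may be technical.

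Metallothioneins are small cytosolic proteins rich in cysteine that bind zinc, copper and cadmium and buffer the free pool of these metals. When zinc rises, MTF1 binds it through its zinc fingers and activates genes with metal response elements in their promoters, among them the metallothioneins and SLC30A1, which carries zinc out across the plasma membrane. Metallothionein genes also respond to glucocorticoids, interleukin-6 and oxidants, and in mouse liver they have been described as depending on NFE2L1. The human MT1 and MT2A genes lie together in a cluster on the long arm of chromosome 16.

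The values are TPM, a length-normalised transcript abundance scaled within each library, and the read depth behind them is unknown. NFE2L1 itself was at 207.3, 180.6 and 354.3 TPM in the NFE2L1 line and at 444.9, 426.7 and 472.1 TPM in the NFE2L1DC line, against 104.2, 81.7 and 64.0 TPM in control. The expression of liver markers went against the cell line label: all 13 HepG2 and hepatocyte markers looked up, ALB, AFP, APOA1, APOB and HNF4A among them, were under 1 TPM in every library, with a highest single value of 0.238 TPM. Of 6 fibroblast markers, 4 reached 1 TPM in at least 3 libraries, while COL1A2 was at 0 and LUM under 1 TPM throughout. With NFE2L1 all 6 summed to 91.8 to 106 TPM and with NFE2L1DC to 85.8 to 102 TPM, against 127 to 148 TPM in control. Most of this was COL3A1, at means of 73.8, 69.5 and 107 TPM in that order. Of the 4, COL3A1 and PDGFRB fell with NFE2L1, where 2.57% of all genes tested were called lower. COL3A1 also fell with NFE2L1DC, where 1.54% were called lower. COL1A1 and DCN were called in neither comparison. The PDGFRB call was lost in 11 of 19 other settings, with limma adjusted p up to 0.135. Of 6 leukocyte markers 5 were at 0 throughout, the sixth, CD68, was at 37.4 ± 3.96 TPM with NFE2L1 and 25.2 ± 1.04 TPM with NFE2L1DC, against 22.5 ± 0.469 TPM in control (SD, n = 3 each), and the 4 endothelial markers stayed under 1 TPM. The part that cell identity has in the results was not tested, and the cells are called the libraries labelled HepG2. Control replicate 3 stood apart from the other controls: among 7299 genes with a mean of at least 10 TPM, 505 and 407 differed at least 2-fold between it and control replicates 1 and 2, while 98 did so between those 2 libraries. The results for the 8 genes that rest on this library are given with and without it.

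The metallothionein genes are near copies of each other, which matters for how reads are assigned. In GENCODE 29, the coding sequences of MT1E, MT1X, MT2A and MT1F each have 186 bases and 20 cysteine codons among 61. They are shown because these are the metallothionein members with values above 0; capitals mark the bases that differ from MT1E at the same position.
MT1E: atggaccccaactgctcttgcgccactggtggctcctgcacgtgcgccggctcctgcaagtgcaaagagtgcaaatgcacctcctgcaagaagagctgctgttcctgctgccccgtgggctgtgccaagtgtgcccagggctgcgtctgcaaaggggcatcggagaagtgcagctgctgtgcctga
MT1X: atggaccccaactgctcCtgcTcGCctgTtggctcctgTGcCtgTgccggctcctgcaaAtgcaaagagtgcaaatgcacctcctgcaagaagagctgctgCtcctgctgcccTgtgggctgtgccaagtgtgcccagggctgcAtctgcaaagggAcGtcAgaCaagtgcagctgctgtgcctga
MT2A: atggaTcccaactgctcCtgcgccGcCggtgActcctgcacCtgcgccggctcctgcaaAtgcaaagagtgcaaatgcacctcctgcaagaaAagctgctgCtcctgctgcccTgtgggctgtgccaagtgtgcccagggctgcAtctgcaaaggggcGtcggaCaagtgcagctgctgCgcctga
MT1F: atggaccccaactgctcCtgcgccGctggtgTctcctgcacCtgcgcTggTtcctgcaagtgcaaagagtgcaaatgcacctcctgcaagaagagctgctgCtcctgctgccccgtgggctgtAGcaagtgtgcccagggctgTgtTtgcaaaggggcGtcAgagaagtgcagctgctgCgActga
MT1X differed from MT1E at 17 of these bases, MT1F at 15 and MT2A at 14. The identity of the coding sequences was 90.9% between MT1E and MT1X, 92.5% between MT1X and MT2A, and 95.2% between MT2A and MT1G. Of all stretches of 50 bases in the annotated transcripts, 18.3% for MT1X, 16.5% for MT1G, 9.87% for MT1M, 7.1% for MT1E, 3.02% for MT2A and 1.22% for MT1F also occurred in a transcript of another gene. For MT1X most of these were shared with AC026461.1, a noncoding locus that overlaps it on the same strand and was listed at 0 TPM in all libraries. No 50-base stretch of SLC30A1 was shared, and 0.64% of those of MTF1 were. The sources used here do not say how shared reads were split or whether strand was used. Single metallothionein values are therefore uncertain by an amount that was not estimated.

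RefSeq promoter windows (GRCh38.p14) were at hand for 4 of the 8 genes: MT1X, MT2A, SLC30A1 and MTF1. The core of the metal response element, spelled TGCACNC or TGCGCNC and searched on both strands, occurred 7 times in the 250 bases upstream of the MT2A start, 4 times upstream of MT1X, once upstream of SLC30A1 and not in the MTF1 window. Among 35116 promoters, 24.8% held at least 1 match in the same length, 0.37% at least 4 and 0.0513% at least 6. The stretches below show where the motif lies in genes whose transcripts were measured, with the matches in capitals and the gene's strand given 5′ to 3′.
MT1X, chr16:56682220-56682423, plus strand: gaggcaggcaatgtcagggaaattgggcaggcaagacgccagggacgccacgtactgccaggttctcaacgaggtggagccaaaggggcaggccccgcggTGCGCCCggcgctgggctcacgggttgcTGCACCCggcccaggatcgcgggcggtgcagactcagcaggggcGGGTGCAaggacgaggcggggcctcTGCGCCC
MT2A, chr16:56608426-56608455, plus strand: ccgggTGCGCCCggcccagTGCGCGCggcc
MT2A, chr16:56608519-56608548, plus strand: ggcggggctttTGCACTCgtcccggctctt
SLC30A1, chr1:211579162-211579411, minus strand: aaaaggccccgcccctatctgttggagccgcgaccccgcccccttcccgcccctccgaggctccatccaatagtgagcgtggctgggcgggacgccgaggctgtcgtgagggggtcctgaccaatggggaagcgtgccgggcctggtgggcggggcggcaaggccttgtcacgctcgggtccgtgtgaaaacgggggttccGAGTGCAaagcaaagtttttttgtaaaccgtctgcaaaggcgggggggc
The MT1X stretch ends 47 bases before the RefSeq start, just ahead of the gene start that GENCODE 29 gives, and the MT2A stretches were kept to 30 bases because GENCODE 29 places a first exon over that window. The SLC30A1 window lies upstream of the RefSeq start and further still from the gene start in GENCODE 29, at 211578742. The antioxidant response element core TGACNNNGC, the kind of site that cap'n'collar factors bind with small MAF proteins, had 1 match on either strand in each of the MT2A, MT1X and SLC30A1 windows and none in that of MTF1. Of all promoters, 10.9% held at least 1. The TATA box core TATAAA matched once each in MT2A and MT1X, against 10.7% of all promoters with at least 1. None of these matches overlapped another. A match describes the letters of the window and does not show that a factor was bound.

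**Figure D1:**
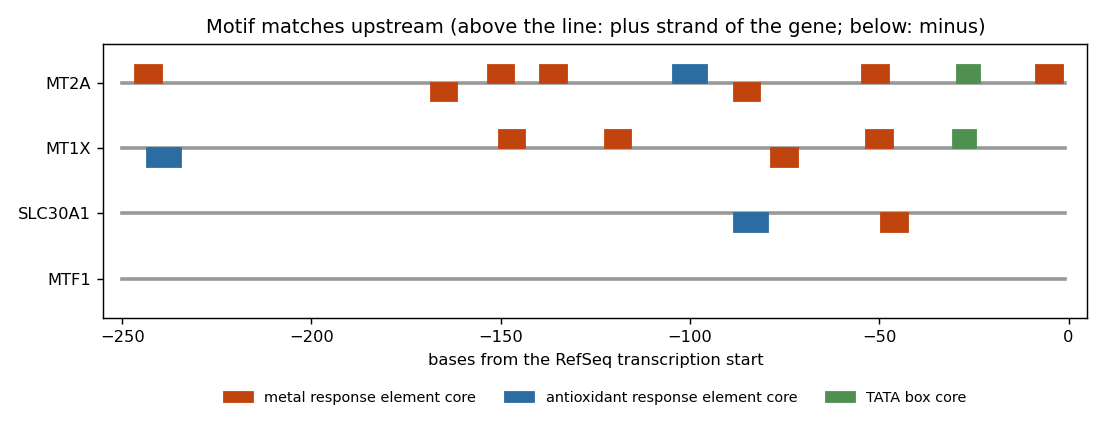
Matches to the metal response element core, the antioxidant response element core and the TATA box core in the 250 bases upstream of the RefSeq start of 4 genes, in bases from that start, drawn above the line for the gene's own strand and below it for the opposite strand. MT2A has 7 metal response element matches, MT1X 4 and SLC30A1 1, and the MTF1 window has no match to any of the motifs.

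MT2A was by far the most abundant of the 8 genes. Its level ranked between 232 and 282 among all genes in the individual libraries, and it made up 73.0% to 76.8% of the summed metallothionein TPM. MT1E followed, then MT1X, SLC30A1 and the low genes MTF1 and MT1F, in each group. Within a group the library ranges of every pair of the 6 genes above 0 were apart, except MT1F and MTF1, which overlapped in control. MT1G and MT1M were listed at 0 TPM in all 9 libraries. Of the 6 genes above 0, all passed the filter for testing, 1 TPM in at least 3 libraries.

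**Figure D2:**
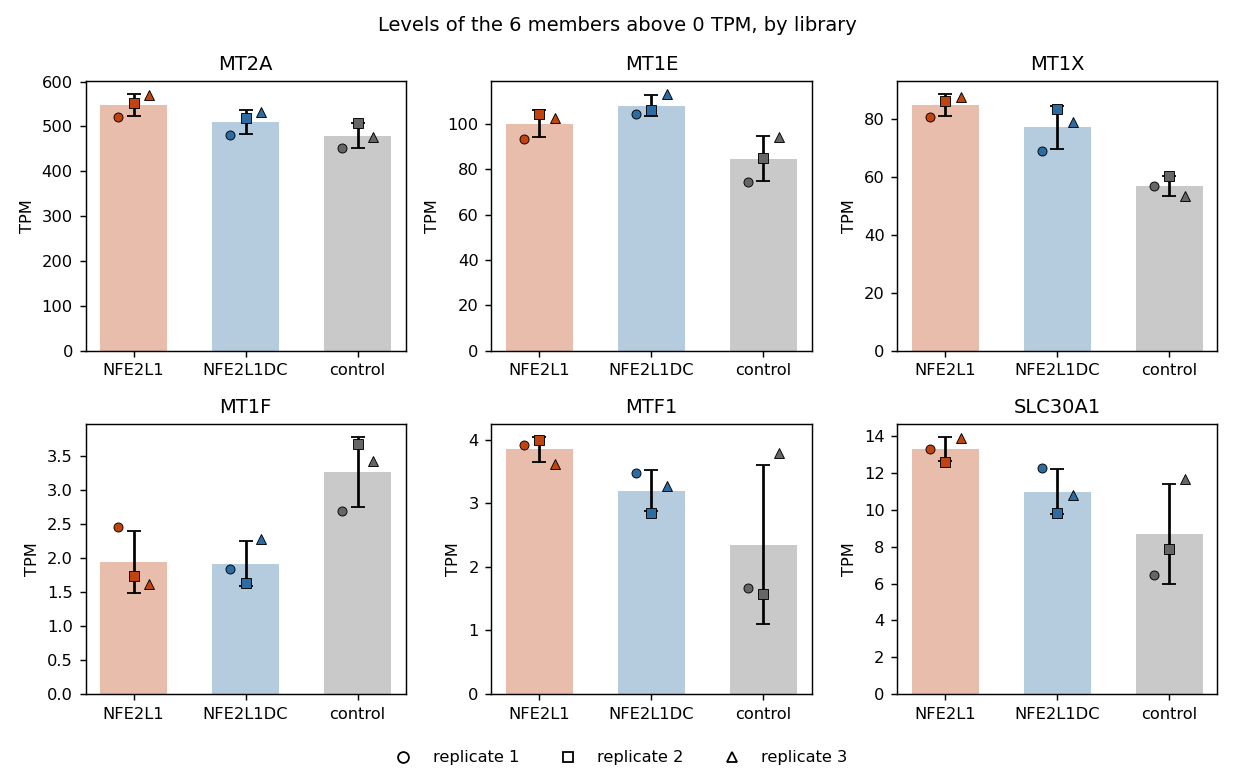
TPM of the 6 genes above 0 in each library (points, shaped by replicate number), with the group mean as a bar and the standard deviation over 3 libraries as the error bar; each panel has its own scale from 0. MT1X lies higher in all libraries of both overexpressing lines than in any control library, MT1F lies lower, and control replicate 3 lies with the overexpressing lines for MTF1 and near them for SLC30A1.

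MT1X (ENSG00000187193, GRCh38 chromosome 16, 56682424 to 56684196, plus strand) was the only one of the 8 genes that passed the test against control, and it did so in both lines, where 10.4% of all genes tested were called with NFE2L1 and 3.61% with NFE2L1DC. It was at 80.5, 86.2 and 87.6 TPM in the NFE2L1 line and at 68.8, 83.4 and 78.8 TPM in the NFE2L1DC line, against 56.7, 60.2 and 53.2 TPM in control. Every library of either line lay above every control library. The means were 84.8 ± 3.75 TPM with NFE2L1 and 77.0 ± 7.49 TPM with NFE2L1DC, against 56.7 ± 3.48 TPM in control (SD, n = 3 each). In log2(TPM + 1), where the added 1 shrinks the differences of low genes, MT1X rose by 0.57 with NFE2L1 (SE 0.09, limma adjusted p = 0.00676), a 1.49-fold difference in mean TPM. With NFE2L1DC it rose by 0.43 (SE 0.09, adjusted p = 0.0417), 1.36-fold. In bulk RNA, fewer cells of a type and less RNA per cell cannot be told apart. The median over all genes tested was itself 0.17 with NFE2L1 and 0.12 with NFE2L1DC. Under median-of-ratios scaling, which moves these medians to 0.01 and 0.02, MT1X was at 0.39 (adjusted p = 0.125) with NFE2L1 and 0.31 (adjusted p = 0.281) with NFE2L1DC and passed in neither line; 7.56% and 2.25% of all genes passed there. With the log2 values corrected for GC content and length it was at 0.71 (adjusted p = 0.000906) and 0.54 (adjusted p = 0.00998), where 12.6% and 4.76% of all genes passed. The NFE2L1 call held in the 18 other settings, while the NFE2L1DC call was lost in 13 of 19, including 8 of the 9 fits that left out 1 library, where the adjusted p reached 0.14 without NFE2L1DC replicate 3.

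MT2A (ENSG00000125148, chromosome 16, 56608199 to 56609497, plus strand), the main metallothionein of most human tissues, was at 521.7, 551.4 and 570.6 TPM with NFE2L1 and at 480.1, 518.6 and 531.5 TPM with NFE2L1DC, against 452.3, 507.7 and 477.5 TPM in control. The NFE2L1 libraries lay above the control range and the NFE2L1DC libraries overlapped it. The log2 fold change was 0.19 (SE 0.07, adjusted p = 0.101) for NFE2L1 and 0.09 (SE 0.07, adjusted p = 0.467) for NFE2L1DC, neither past the threshold. The first of these sits close to the median of all genes, and under median-of-ratios scaling it was 0.01. With GC content and length corrected for, MT2A was at 0.42 with NFE2L1 (adjusted p = 0.0162) and passed.

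MT1E (ENSG00000169715, chromosome 16, 56625475 to 56627112, plus strand) had its highest mean in the NFE2L1DC line, whose libraries overlapped those of the NFE2L1 line. It was at 93.3, 104.5 and 102.5 TPM with NFE2L1 and at 104.2, 106.0 and 113.2 TPM with NFE2L1DC, against 74.5, 85.0 and 94.3 TPM in control. All NFE2L1DC libraries lay above the controls, whereas the lowest NFE2L1 library lay just under control replicate 3. The log2 fold change was 0.24 (SE 0.10, adjusted p = 0.13) for NFE2L1 and 0.35 (SE 0.10, adjusted p = 0.0833) for NFE2L1DC. Without control replicate 3 both passed, at 0.33 (adjusted p = 0.0243) and 0.43 (adjusted p = 0.0127), in a fit that called 35.8% and 24.4% of all genes. Under median-of-ratios scaling MT1E was at 0.06 with NFE2L1 (adjusted p = 0.752) and 0.23 with NFE2L1DC (adjusted p = 0.282), and with GC content and length corrected for at 0.48 (adjusted p = 0.0536) and 0.56 (adjusted p = 0.0558).

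MT1F (ENSG00000198417, chromosome 16, 56657694 to 56660698, plus strand) had lower means in both lines than in control, while MT1X, MT2A and MT1E had higher ones. It was at 2.46, 1.74 and 1.61 TPM with NFE2L1 and at 1.85, 1.64 and 2.29 TPM with NFE2L1DC, against 2.69, 3.68 and 3.43 TPM in control. Each library of both lines lay under each control library. The ratio of mean TPM was 0.592 with NFE2L1 and 0.588 with NFE2L1DC. Neither passed: the log2 fold change was -0.54 (SE 0.17, adjusted p = 0.0761) for NFE2L1 and -0.55 (SE 0.17, adjusted p = 0.119) for NFE2L1DC. Under median-of-ratios scaling the NFE2L1 value was -0.68 and passed (adjusted p = 0.0454), while with GC content and length corrected for it was -0.33 (adjusted p = 0.283). At these low levels the unknown depth limits what can be read from MT1F.

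MT1G (ENSG00000125144, chromosome 16, 56666731 to 56668065, minus strand) and MT1M (ENSG00000205364, chromosome 16, 56632233 to 56633986, plus strand), further members of the same cluster, gave no value to compare. The other protein-coding metallothionein genes MT1A, MT1B, MT1H, MT1HL1, MT3 and MT4 were likewise listed at 0 in every library. A zero in a TPM table can come from the estimation as well as from the cells. None of 32 genes used by nearly every cell, chosen after the values were seen, was at 0 in any library, and their lowest value was 14.4 TPM. Because they were picked with their values known, the 32 genes do not show whether the metallothionein zeros come from the estimation. Of 19762 protein-coding genes, 21.0% were at 0 in all libraries. Among the metallothionein pseudogenes, MT1DP, which lies within the cluster, was at 0.853, 0.806 and 1.16 TPM with NFE2L1 and at 1.07, 0 and 1.57 TPM with NFE2L1DC, against 1.83, 3.55 and 1.28 TPM in control, with adjusted p-values of 0.232 and 0.223.

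MTF1 (ENSG00000188786, chromosome 1, 37809567 to 37859620, minus strand), the zinc sensor, was at 3.92, 4.0 and 3.63 TPM with NFE2L1 and at 3.48, 2.85 and 3.27 TPM with NFE2L1DC, against 1.67, 1.58 and 3.79 TPM in control. Control replicate 3 fell inside the NFE2L1 range and above the NFE2L1DC range, and the other control libraries lay under both. With all controls the log2 fold change was 0.59 (SE 0.23, adjusted p = 0.123) for NFE2L1 and 0.39 (SE 0.23, adjusted p = 0.354) for NFE2L1DC. Without control replicate 3 MTF1 passed in both lines, at 0.88 (adjusted p = 0.00217) and 0.68 (adjusted p = 0.0106). In that fit 35.8% and 24.4% of all genes were called. The medians over all genes in that fit were 0.24 and 0.18. Against control replicate 3 alone the ratio of TPM was 1.01 for NFE2L1 and 0.845 for NFE2L1DC. Under median-of-ratios scaling MTF1 was at 0.47 with NFE2L1 (limma adjusted p = 0.152) and 0.31 with NFE2L1DC (adjusted p = 0.407). With GC content and length corrected for it was at 0.45 (adjusted p = 0.14) and 0.29 (adjusted p = 0.386).

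SLC30A1 (ENSG00000170385, chromosome 1, 211571568 to 211578742, minus strand), the exporter also called ZnT1 and a classical MTF1 target, varied like MTF1 over the libraries. It was at 13.3, 12.6 and 13.9 TPM with NFE2L1 and at 12.3, 9.84 and 10.8 TPM with NFE2L1DC, against 6.49, 7.85 and 11.7 TPM in control. The NFE2L1 libraries lay above all controls, and the NFE2L1DC libraries overlapped control replicate 3. The log2 fold change was 0.59 (SE 0.19, limma adjusted p = 0.0747) for NFE2L1 and 0.34 (SE 0.19, adjusted p = 0.322) for NFE2L1DC. Without control replicate 3 it was 0.81 (adjusted p = 0.00295) and 0.55 (adjusted p = 0.0194). In that fit 35.8% and 24.4% of all genes were called. Under median-of-ratios scaling SLC30A1 was at 0.43 (adjusted p = 0.103) and 0.23 (adjusted p = 0.422). Against control replicate 3 alone the ratio of TPM was 1.13 for NFE2L1 and 0.939 for NFE2L1DC. MTF1 and SLC30A1 have long transcripts with a GC content of 46.7% and 38.0%, beside 53.5% to 58.2% in the 4 measured metallothionein genes. Corrected for both, SLC30A1 was at 0.36 (adjusted p = 0.0717) with NFE2L1 and 0.15 (adjusted p = 0.473) with NFE2L1DC.

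**Figure D3:**
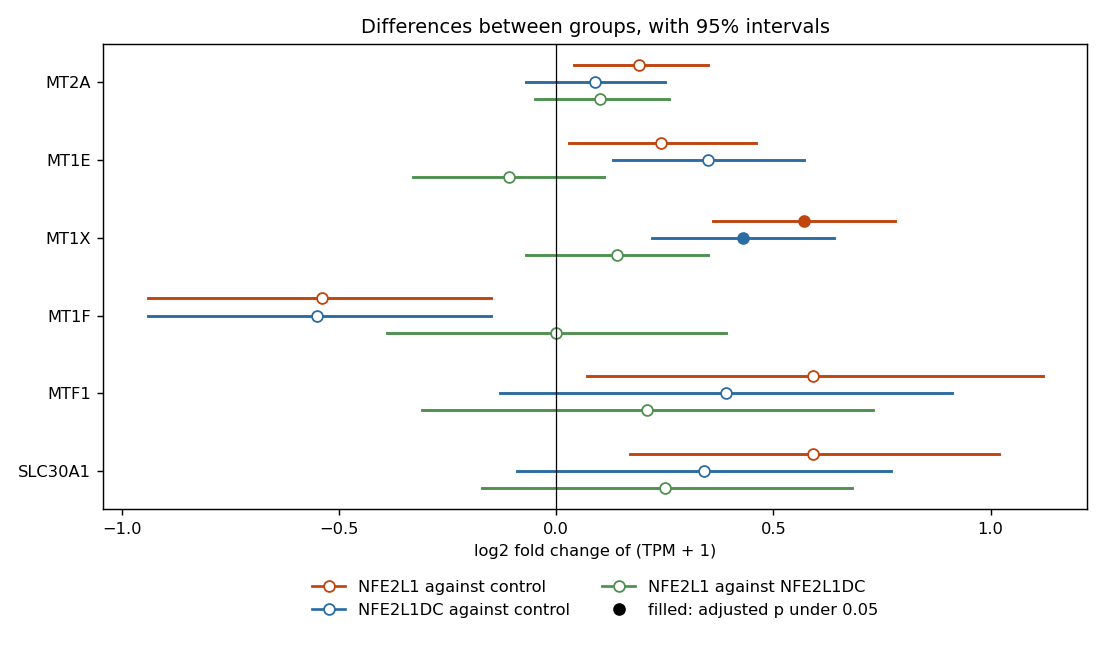
Log2 fold changes of TPM + 1 for the 6 genes tested, in NFE2L1 against control, NFE2L1DC against control and NFE2L1 against NFE2L1DC, with 95% intervals from the limma fit; filled points have an adjusted p under 0.05. The filled points are those of MT1X against control, at 0.57 and 0.43; MT1F lies at -0.54 and -0.55, and all intervals of the comparison between the lines cover 0.

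In NFE2L1 against control, 1 of the 6 genes tested rose and none fell, where 10.4% of all 14118 genes tested were called and 7.83% were called higher and 2.57% lower. The count was again 1 under median-of-ratios scaling, but the gene was MT1F, which fell, in place of MT1X. Their log2 fold changes had a median of 0.41, and those of all genes one of 0.17. The libraries of the groups did not overlap for 4 of the 6 genes, 3 higher and 1 lower, beside 32.1% of all genes, 22.6% higher and 9.53% lower. In NFE2L1DC against the same controls, 1 rose and none fell, where 3.61% of all genes were called and 2.06% were called higher and 1.54% lower. The median was 0.35 beside 0.12 over all genes, and the libraries of 3 genes did not overlap, 2 higher and 1 lower, beside 22.7% of all genes, 13.7% higher and 8.98% lower. Both comparisons share the control libraries.

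The overexpressing lines were then compared with each other, which sets NFE2L1 beside the NFE2L1DC form. In these libraries NFE2L1 itself had a mean of 247 TPM with NFE2L1 and 448 TPM with NFE2L1DC. The part that this level has in the comparison was not tested. None of the 6 genes differed past the threshold in limma, and none had an unadjusted p under 0.05, while 0.793% of all genes were called, 0.715% higher and 0.0779% lower with NFE2L1. The log2 difference of NFE2L1 minus NFE2L1DC was 0.14 for MT1X (95% interval -0.07 to 0.35), 0.10 for MT2A (-0.05 to 0.26) and -0.11 for MT1E (-0.33 to 0.11). It was 0.00 for MT1F (-0.39 to 0.39), 0.21 for MTF1 (-0.31 to 0.73) and 0.25 for SLC30A1 (-0.17 to 0.68). The intervals leave room for differences of up to 0.35 in MT1X and 0.73 in MTF1 and do not show that the lines were alike. The libraries of the lines did not overlap for MTF1 and SLC30A1, both higher with NFE2L1, beside 18.0% of all genes, 12.4% higher and 5.55% lower. With NFE2L1 the ratio of MT1X to MT1E was 0.863, 0.826 and 0.854, and with NFE2L1DC it was 0.66, 0.787 and 0.696, against 0.761, 0.708 and 0.564 in control. The NFE2L1 libraries lay above those of both other groups in this ratio, a pair chosen after the values were seen and given without a test.

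Taken as a family, the summed metallothionein level was 699, 746 and 764 TPM with NFE2L1 and 658, 711 and 728 TPM with NFE2L1DC, against 589, 661 and 631 TPM in control. The NFE2L1 libraries lay above the controls, and the lowest NFE2L1DC library fell within the control range. The make-up of the sum also differed. MT1X formed 11.5%, 11.6% and 11.5% of it with NFE2L1 and 10.5%, 11.7% and 10.8% with NFE2L1DC, against 9.63%, 9.1% and 8.43% in control. The ratio of MT1X to MT2A within a library, which does not depend on how libraries are scaled, was 0.154 ± 0.00153 with NFE2L1 and 0.151 ± 0.00929 with NFE2L1DC, against 0.119 ± 0.00651 in control (SD, n = 3 each), with no overlap of either line with control. This pair too was chosen after the values were seen, and the ratio has no test. It shows unequal differences in the 2 genes and not that either stayed constant.

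Over the 9 libraries, which share the group differences and the shift of control replicate 3, the log2 levels of MTF1 and SLC30A1 had a Pearson correlation of 0.946, the highest of the 15 pairs. MT1X and MT2A had 0.855. MT1F correlated negatively with each of the other 5 genes, from -0.828 with MT1X to -0.492 with MTF1. MTF1 had 0.529 with MT1X and 0.478 with MT2A. These values describe the libraries and carry no test.

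Zinc transport was looked at through the rest of both transporter families. Of the 9 other SLC30 exporters, which move zinc out of the cytosol, 5 could be tested and none passed in any comparison with limma. Of all genes tested, 10.4% were called with NFE2L1, 3.61% with NFE2L1DC and 0.793% between the lines. The 5 exporters had a median log2 fold change of 0.25 with NFE2L1 and 0.19 with NFE2L1DC, beside the all-gene medians of 0.17 and 0.12. SLC30A5, which supplies zinc to the secretory pathway, was the most abundant at 30.7 ± 0.665 TPM with NFE2L1 and 30.4 ± 3.93 TPM with NFE2L1DC, against 26.4 ± 4.0 TPM in control (SD, n = 3 each). Of the 14 SLC39 importers 10 were tested, with medians of 0.38 and 0.21. One of them, SLC39A6 (ZIP6), a zinc importer of the plasma membrane, rose with NFE2L1, and none rose or fell with NFE2L1DC or between the lines. That 1 of 10 is near the 10.4% called among all genes.

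SLC39A6 was at 32.8, 29.8 and 34.9 TPM with NFE2L1 and at 28.5, 25.2 and 21.8 TPM with NFE2L1DC, against 12.2, 11.1 and 25.3 TPM in control. Again control replicate 3 lay far above the other controls and within the NFE2L1DC range. The log2 fold change was 1.05 with NFE2L1 (adjusted p = 0.0357) and 0.69 with NFE2L1DC (adjusted p = 0.17). The NFE2L1 call was lost in 10 of 19 other settings, with values between 0.84 and 1.4. The highest was that without control replicate 3 (adjusted p = 0.000388), while against control replicate 3 alone the ratio of TPM was 1.28 for NFE2L1 and 0.993 for NFE2L1DC. SLC39A7, which releases zinc from the endoplasmic reticulum, was among the most abundant importers at 212 ± 16.9 TPM with NFE2L1 and 226 ± 7.73 TPM with NFE2L1DC, against 196 ± 23.6 TPM in control. SLC39A14, an importer that liver induces in inflammation, was at 108.4, 59.2 and 90.2 TPM with NFE2L1 and at 119.2, 91.8 and 106.9 TPM with NFE2L1DC, against 81.0, 36.5 and 51.4 TPM in control (adjusted p = 0.172 and 0.1).

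**Figure D4:**
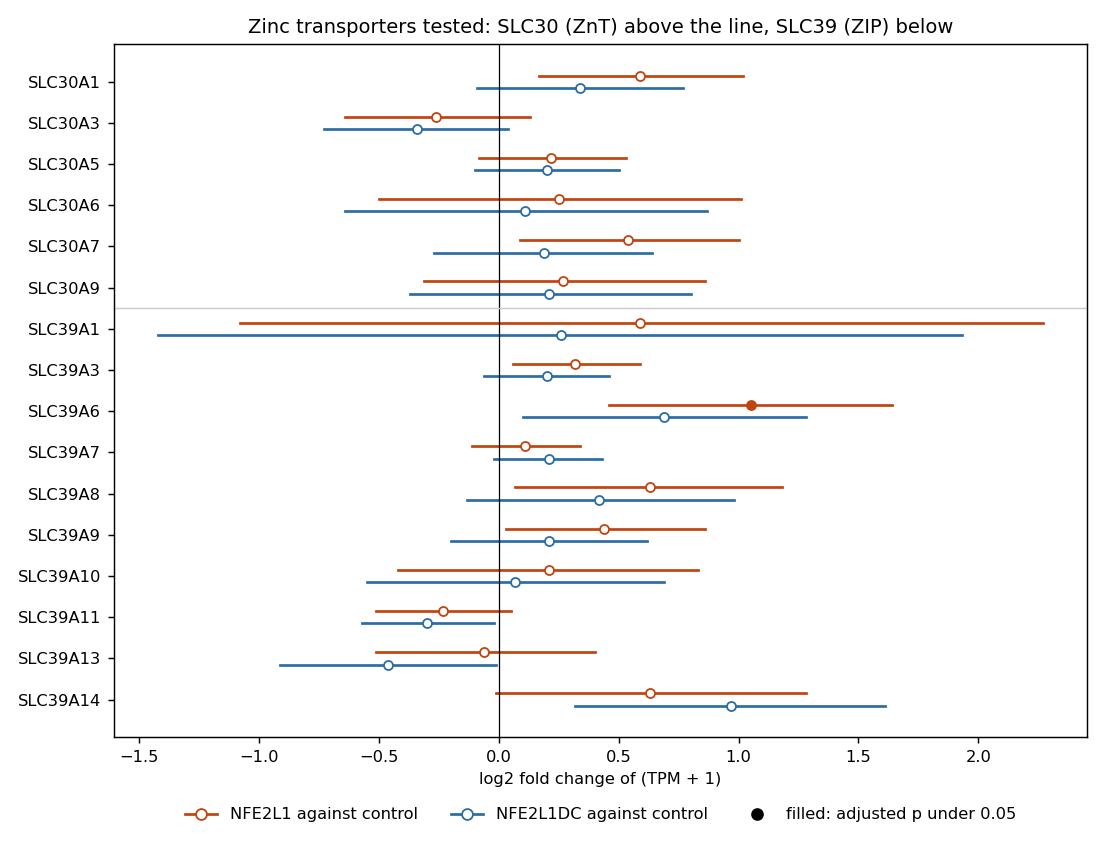
Log2 fold changes of TPM + 1 against control for SLC30A1, the 5 other SLC30 exporters tested (above the line) and the 10 SLC39 importers tested (below it), with 95% intervals, for NFE2L1 and NFE2L1DC; filled points have an adjusted p under 0.05. SLC39A6 with NFE2L1, at 1.05, is the filled point, and SLC39A1 has the widest intervals.

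Copper shares the metallothioneins as a buffer. Of 10 copper-handling genes 8 were tested; with NFE2L1 none rose and 1 fell, where 10.4% of all genes were called and 2.57% called lower, and with NFE2L1DC none passed, where 3.61% were called. The one was CCS, the copper chaperone of superoxide dismutase, at 18.3 ± 1.64 TPM with NFE2L1 and 20.3 ± 0.834 TPM with NFE2L1DC, against 24.5 ± 1.72 TPM in control. Its log2 fold change of -0.40 with NFE2L1 (adjusted p = 0.0446) lost the call in 14 of 19 other settings and was closest to 0 at -0.17. The importer SLC31A1 was at 37.4 ± 1.46 TPM with NFE2L1 and 34.5 ± 6.77 TPM with NFE2L1DC, against 27.0 ± 5.28 TPM in control (adjusted p = 0.0941 and 0.259).

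Heavy metals and oxidants are known to induce other genes besides the metallothioneins, and all 12 of a list of these were tested. With NFE2L1 7 rose and none fell, at a median of 0.56, where 7.83% of all genes were called higher and the median of all genes was 0.17. With NFE2L1DC 2 rose and none fell, at a median of 0.38, where 2.06% of all genes were called higher and their median was 0.12. HMOX1, heme oxygenase 1, was at 261.9, 287.6 and 286.8 TPM with NFE2L1 and at 23.8, 28.1 and 28.3 TPM with NFE2L1DC, against 35, 43.8 and 29.8 TPM in control, and was the one gene of the list that differed between the lines, with a log2 difference of 3.34 (adjusted p = 5.79e-06). Against control its log2 fold change was 2.93 with NFE2L1 (adjusted p = 5.53e-06). The cystine transporter gene SLC7A11 was at 3.88 ± 0.587 TPM with NFE2L1 and 2.40 ± 0.419 TPM with NFE2L1DC, against 1.33 ± 0.656 TPM in control, and rose with NFE2L1 (log2 fold change 1.09, adjusted p = 0.0145). TXNRD1, a thioredoxin reductase, and GCLM, a subunit of the glutathione-synthesis enzyme, rose with NFE2L1 by 0.86 and 0.79 on the log2 scale. The call was lost in 4 of 18 other settings for SLC7A11, in 8 of 19 for TXNRD1 and in 10 of 19 for GCLM. Without control replicate 3 the values were 1.31 for SLC7A11, 0.98 for TXNRD1 and 0.98 for GCLM. With NFE2L1DC the rises were in HSPA1A, a chaperone of the heat shock response whose neighbour HSPA1B is a near copy, by 0.45, and in SRXN1, sulfiredoxin, by 0.36. SRXN1 also rose with NFE2L1, by 0.35 (adjusted p = 0.0227), as did BAG3 and DNAJB1. The NFE2L1DC call was lost in 11 of 19 other settings for HSPA1A and in 12 of 19 for SRXN1. The NFE2L1 calls of SRXN1, BAG3 and DNAJB1 were not followed through the other settings.

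Glucocorticoids and interleukin-6 also induce metallothioneins. Of 8 glucocorticoid-responsive genes 6 were tested and none passed in any comparison. Among all genes, 10.4% were called with NFE2L1, 3.61% with NFE2L1DC and 0.793% between the lines. The median of the 6 was -0.31 with NFE2L1 and -0.03 with NFE2L1DC, beside all-gene medians of 0.17 and 0.12. TSC22D3, which encodes the glucocorticoid-induced leucine zipper, was at 46.3 ± 5.35 TPM with NFE2L1 and 60.8 ± 4.43 TPM with NFE2L1DC, against 62.0 ± 9.14 TPM in control (adjusted p = 0.0689 and 0.935). Of 14 genes of the interleukin-6 and acute-phase list 4 were tested, and the fibrinogen genes, CRP and HP were listed at 0. The 1 called was SOCS3, a feedback inhibitor of cytokine signalling, which rose with NFE2L1, where 7.83% of all genes were called higher. It was at 41.4, 40.1 and 40.5 TPM with NFE2L1 and at 35.8, 31.8 and 34.0 TPM with NFE2L1DC, against 28, 24.6 and 25.2 TPM in control. The log2 fold change was 0.63 (adjusted p = 0.0035) with NFE2L1, called in all 19 other settings, and 0.37 (adjusted p = 0.0564) with NFE2L1DC.

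The protein-coding genes with the pattern most like that of the metallothioneins were found by the Pearson correlation of their log2 levels over the 9 libraries with the mean standardised profile of MT1E, MT1F, MT1X and MT2A, among 6868 genes with a mean of at least 10 TPM. They were SMYD2, a lysine methyltransferase, and MRPL57, a mitochondrial ribosomal protein gene, both at 0.929, RBM34, an RNA-binding protein gene, at 0.907, UBE2D2, a ubiquitin-conjugating enzyme gene, at 0.902, and PRCC at 0.897. SMYD2 was at 36.9 ± 2.39 TPM with NFE2L1 and 29.2 ± 3.36 TPM with NFE2L1DC, against 22.1 ± 4.07 TPM in control. MRPL57 was at 49.3 ± 1.03 TPM with NFE2L1 and 48.4 ± 1.49 TPM with NFE2L1DC, against 43.5 ± 1.89 TPM in control. The profile is the mean of 3 genes that lay higher and 1 that lay lower in the overexpressing lines.

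**Figure D5:**
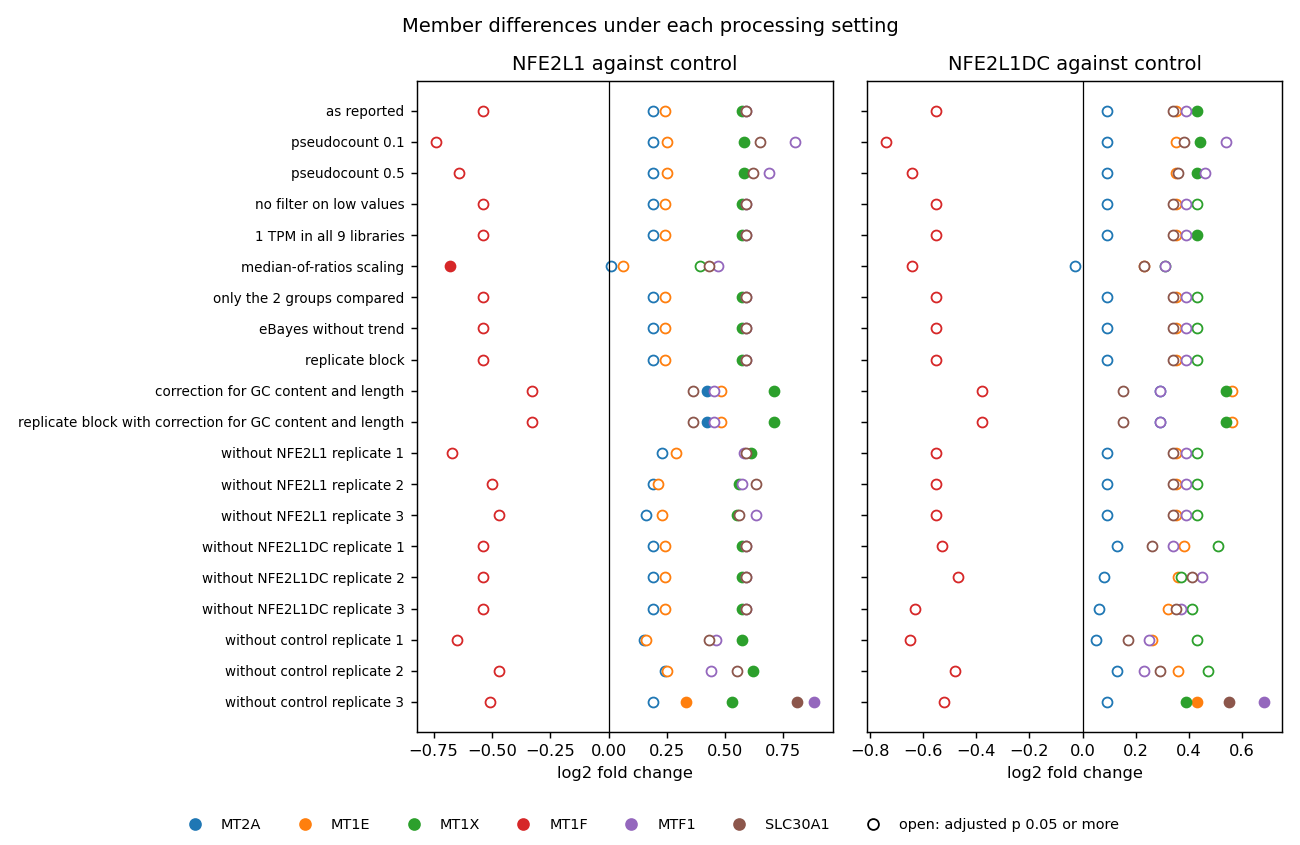
Log2 fold changes of the 6 genes against control under the reported fit and 19 other settings, for NFE2L1 (left) and NFE2L1DC (right); filled points have an adjusted p under 0.05. With NFE2L1, MT1X is filled in all rows but median-of-ratios scaling. MTF1, SLC30A1 and MT1E are filled in both panels without control replicate 3, where 35.8% and 24.4% of all genes were called.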

How the data were processed

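RNA-seq was run on 9 libraries. The deposited table gives TPM per gene, and the submitters' processing notes name CASAVA and GRCh38; the sources used here name no aligner, quantifier or annotation. Column sums were 999983.0 to 999991.7, so depth is unknown and no counting interval can be given. Of 58174 identifiers, 57836 matched GENCODE 29, which supplied coordinates, GC content and the length of the longest transcript. Genes at 1 TPM or more in at least 3 libraries (14118) were fitted as log2(TPM + 1) in limma 3.58.1 (R 4.3.3), with 1 mean per group, trended variances (3.34 prior degrees of freedom) and 2-sided contrasts. P-values were adjusted by Benjamini-Hochberg over all genes tested, with a threshold of 0.05. The fit was also run on simulated data. These had independent noise for each gene and library, with no shift like that of control replicate 3. They do not show how the fit handles such a shift.

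Genes and lists were chosen with earlier results of these data known. Named were all 8 genes, NFE2L1, up to 4 changed genes a list with the largest changes, and the 5 most similar patterns. Beyond that limit, BAG3, DNAJB1 and, with NFE2L1, SRXN1 are named as the remaining calls of their list. SLC30A5, SLC39A7, SLC39A14, SLC39A1, SLC31A1, TSC22D3 and MT2P1 are given as examples chosen after their values were seen. The correction for GC content and length subtracted, per library, splines with 5 degrees of freedom. Other settings were 2 pseudocounts, 2 filters, scaling, the groups fitted, untrended variances, the replicate number as a block and each library left out.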

Additional observations from a re-analysis of the deposited data

How the results depend on the processing

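Of 342 refits of the 18 log2 fold changes of the tested genes, 313 kept direction and side of the threshold, 14 lost and 9 gained a call, and 6 changed sign. The 14 losses were all in MT1X against control, in 1 of 19 refits with NFE2L1 and 13 of 19 with NFE2L1DC. No other result had a call to lose. The sign changes were MT2A in NFE2L1DC against control under median-of-ratios scaling (-0.03), and MT1F in NFE2L1 against NFE2L1DC, at 0.00 as reported, with pseudocount 0.1 (-0.0011), median-of-ratios scaling (-0.04) and without NFE2L1 replicate 1 (-0.12), NFE2L1DC replicate 1 (-0.01) or NFE2L1DC replicate 2 (-0.07), reaching 0.09 without NFE2L1DC replicate 3. In NFE2L1 against control, the 1 of the 8 genes called became 2 with GC content and length corrected for, with or without replicate block. That correction without the block called 12.6% of all genes. The count stayed 1 under median-of-ratios scaling, but as MT1F lower in place of MT1X higher. It was between 1 and 4 when a library was left out. In NFE2L1DC against control the count became 0 with no filter, median-of-ratios scaling, the 2 groups alone, untrended variances and the replicate block. It was between 0 and 4 when a library was left out. The 4 in each comparison came without control replicate 3, where 35.8% and 24.4% of all genes were called. Between the lines it stayed at 0. Over all genes, the 1468 called with NFE2L1 against control became 947 with no filter, 848 with 2 groups, 872 with the replicate block, and 510 to 5055 with a library left out; under median-of-ratios scaling 542 were higher and 526 lower, beside 1105 and 363. The 509 with NFE2L1DC became 317 under median-of-ratios scaling, 101 with 2 groups, 313 untrended, 198 with the block, and 115 to 3444. The 112 between the lines became 58 with the block, and 49 to 147. The highest counts were without control replicate 3. Over all genes, deviations of same-numbered libraries correlated between -0.189 and 0.109, and those of differently numbered libraries between -0.182 and 0.276. The labels do not say what the numbers mark, so whether they pair the libraries stayed undecided. The cause of these moves was not tested. Unknown depth limits MT1F and MTF1 most.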

Other observations

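MT2P1, a processed pseudogene of MT2A that was too low to be tested, was at 0.037, 0.046 and 0 TPM in the NFE2L1 line and at 1.11, 0.581 and 0.521 TPM in the NFE2L1DC line, against 0.111, 0.364 and 0.011 TPM in control. All 3 NFE2L1DC libraries lay above all others, and the difference was not tested. Among the genes that were tested, 13.7% had all NFE2L1DC libraries above all controls. In 5.55% all NFE2L1 libraries lay below all NFE2L1DC libraries. Of the 1352 31-base stretches of MT2A transcripts, 98 (7.25%) occurred in another gene, 59 of them in MT2P1, whose transcript has 183 bases. The share of MT2P1 itself that occurs in MT2A was not computed. How far MT2A reads enter the MT2P1 values is unknown.

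SLC39A1, a zinc importer, split within every group in the table: it was at 57.3, 281.1 and 280.3 TPM with NFE2L1 and at 73.3, 286.7 and 107.4 TPM with NFE2L1DC, against 256.5, 76.2 and 67.0 TPM in control. Its log2 fold changes of 0.59 and 0.26 (limma adjusted p = 0.607 and 0.854) rest on that spread.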
